A study of Mus musculus with 9 samples.

Results

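Genes known as markers of the thalamus were followed through RNAseq libraries of the mediobasal hypothalamus (MBH), which includes the arcuate nucleus. The members were 10 genes named by symbol, Tcf7l2, Lef1, Prkcd, Ntng1, Rora, Synpo2, Tnnt1, Amotl1, Zic1 and Zic4, of 35975 genes with a quantified transcript. All 10 were in the deposited gene table, and their 103 transcripts were summed per gene. The tissue came from wild-type C57Bl/6 male mice at P21 (postnatal day 21), the age of weaning. In CTRL the dams drank plain water, and in Emul they drank water with 1% carboxymethylcellulose (CMC) and 1% polysorbate 80 (P80), 2 food emulsifiers. There were 4 CTRL and 5 Emul libraries, from as many litters. The sources used here do not say how many pups made up a library.

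The thalamus lies above the hypothalamus and relays sensory and motor signals to the cortex. Its excitatory neurons are known for the transcription factors Tcf7l2 and Lef1, which bind DNA as the nuclear end of the Wnt and β-catenin pathway, and for the nuclear receptor Rora. Prkcd encodes protein kinase C delta, Ntng1 encodes the axonal membrane protein netrin-G1, Synpo2 an actin-binding protein, Tnnt1 slow skeletal troponin T and Amotl1 a junction protein related to angiomotin. Zic1 and Zic4 encode zinc finger transcription factors of dorsal and medial parts of the developing brain. Tcf7l2 is also known from maturing oligodendrocytes, and several of these genes have lower levels in other brain regions.

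Libraries held between 28245360 and 46067534 estimated counts. Markers of the labelled tissue were present in every library, with Pomc at 3.87 to 4.84, Npy at 5.28 to 6.2 and Nr5a1, a marker of the ventromedial nucleus, at 3.97 to 4.42 log2 CPM. Levels are log2 CPM, counts scaled to the library total after TMM normalisation, unless TPM is named, which also divides by transcript length. A CPM above 1 in at least 4 libraries was required for testing, and 9 of the 10 met it, as did 15340 genes in all. In bulk tissue, fewer cells of a type and less RNA per cell cannot be told apart.

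Tcf7l2 (chr19:55741820-55933654, plus strand, mm10 as are all positions) spanned 4-fold between the lowest and the highest library. In CTRL it stood at 4.37, 5.17, 4.43 and 4.54 log2 CPM (replicates 1 to 4), and in Emul at 5.64, 5.49, 6.37, 4.63 and 4.44 (replicates 1 to 5). Emul 1, Emul 2 and Emul 3 lay above every CTRL library, while Emul 4 and Emul 5 lay within the range of CTRL. The estimated log2 fold change (Emul over CTRL) was 0.66 ± 0.36 (SE), with an unadjusted p of 0.086 and an adjusted p of 0.39 (limma-voom, Benjamini-Hochberg over all genes tested). Lef1 (chr3:131110471-131224356, plus strand), its close relative, was at 2.91, 3.03, 2.87 and 3.07 in CTRL and at 3.11, 3.07, 3.78, 2.79 and 3.06 log2 CPM in Emul. Only Emul 3 stood clearly above the rest for Lef1, with an estimated log2 fold change of 0.17 ± 0.16 (SE) and an adjusted p of 0.63 by limma-voom.

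Prkcd (chr14:30595354-30626210, minus strand) followed the order of Tcf7l2 closely. Its levels were 4.09, 4.46, 4.36 and 4.18 log2 CPM in CTRL and 5.26, 4.97, 5.88, 4.35 and 3.98 in Emul. Emul 3 was again highest and Emul 5 was the lowest of all 9 libraries. The log2 fold change was 0.61 ± 0.32 (SE), with an unadjusted p of 0.081 and an adjusted p of 0.38 by limma-voom.

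Ntng1 (chr3:109780040-110144011, minus strand) and Rora (chr9:68653786-69388246, plus strand) were higher in Emul at an unadjusted p under 0.05, but not after adjustment. Ntng1 was at 5.46, 5.90, 5.29 and 5.74 log2 CPM in CTRL and at 6.23, 6.16, 6.67, 5.74 and 6.03 in Emul, so that 4 of 5 Emul libraries exceeded every CTRL library. Its log2 fold change was 0.55 ± 0.16 (SE), or 1.47-fold, with an unadjusted p of 0.0057 and an adjusted p of 0.17 by limma-voom. Rora was at 6.34, 6.47, 6.34 and 6.36 in CTRL and at 6.69, 6.55, 6.99, 6.55 and 6.43 log2 CPM in Emul. Here too 4 of 5 Emul libraries lay above all CTRL libraries. The log2 fold change of Rora was 0.26 ± 0.091 (SE), with an unadjusted p of 0.013 and an adjusted p of 0.20 by limma-voom.

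Of the remaining markers outside the Zic family, Synpo2 (chr3:123076519-123236149, minus strand) had the largest range of the 9 genes tested and Amotl1 (chr9:14541966-14645056, minus strand) the smallest. Synpo2 was at 3.39, 4.07, 3.38 and 3.34 log2 CPM in CTRL and at 4.75, 4.19, 5.50, 3.65 and 3.56 in Emul, a 4.48-fold range. Emul 1, Emul 2 and Emul 3 exceeded CTRL 2, which itself stood above the other CTRL libraries. The log2 fold change was 0.76 ± 0.38 (SE, unadjusted p = 0.069, adjusted p = 0.36 by limma-voom). Amotl1 was at 7.17, 7.27, 7.18 and 7.32 in CTRL and at 7.35, 7.33, 7.55, 7.25 and 7.55 log2 CPM in Emul, a 1.3-fold range. Emul 3 and Emul 5 shared its top level. Its log2 fold change was 0.17 ± 0.062 (SE), or 1.12-fold, with an unadjusted p of 0.020 and an adjusted p of 0.23 by limma-voom. Tnnt1 (chr7:4504570-4516382, minus strand) did not pass the filter. Its estimated counts were 25, 38, 10 and 42 in CTRL and 85, 36, 78, 30 and 17 in Emul. Emul 1 and Emul 3 were the high libraries, and the difference of group means in log2 CPM had an exact permutation p of 0.32 (two-sided).

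Zic1 and Zic4 had another order. Zic1 was at 5.19, 5.24, 5.87 and 4.74 log2 CPM in CTRL and at 5.64, 4.77, 5.12, 5.57 and 3.95 in Emul. It was highest in CTRL 3 and lowest in Emul 5, and Emul 3 lay below CTRL 1. Its estimate was -0.20 ± 0.30 on the log2 scale (SE), with an adjusted p of 0.79 by limma-voom. Zic4 was at 2.50, 2.33, 3.14 and 2.28 in CTRL and at 2.74, 1.82, 2.02, 2.90 and 1.56 log2 CPM in Emul. It was also highest in CTRL 3 and lowest in Emul 5, and 3 of 5 Emul libraries lay below every CTRL library. Its log2 fold change was -0.29 ± 0.26 (SE, adjusted p = 0.63 by limma-voom).

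**Figure D1:**
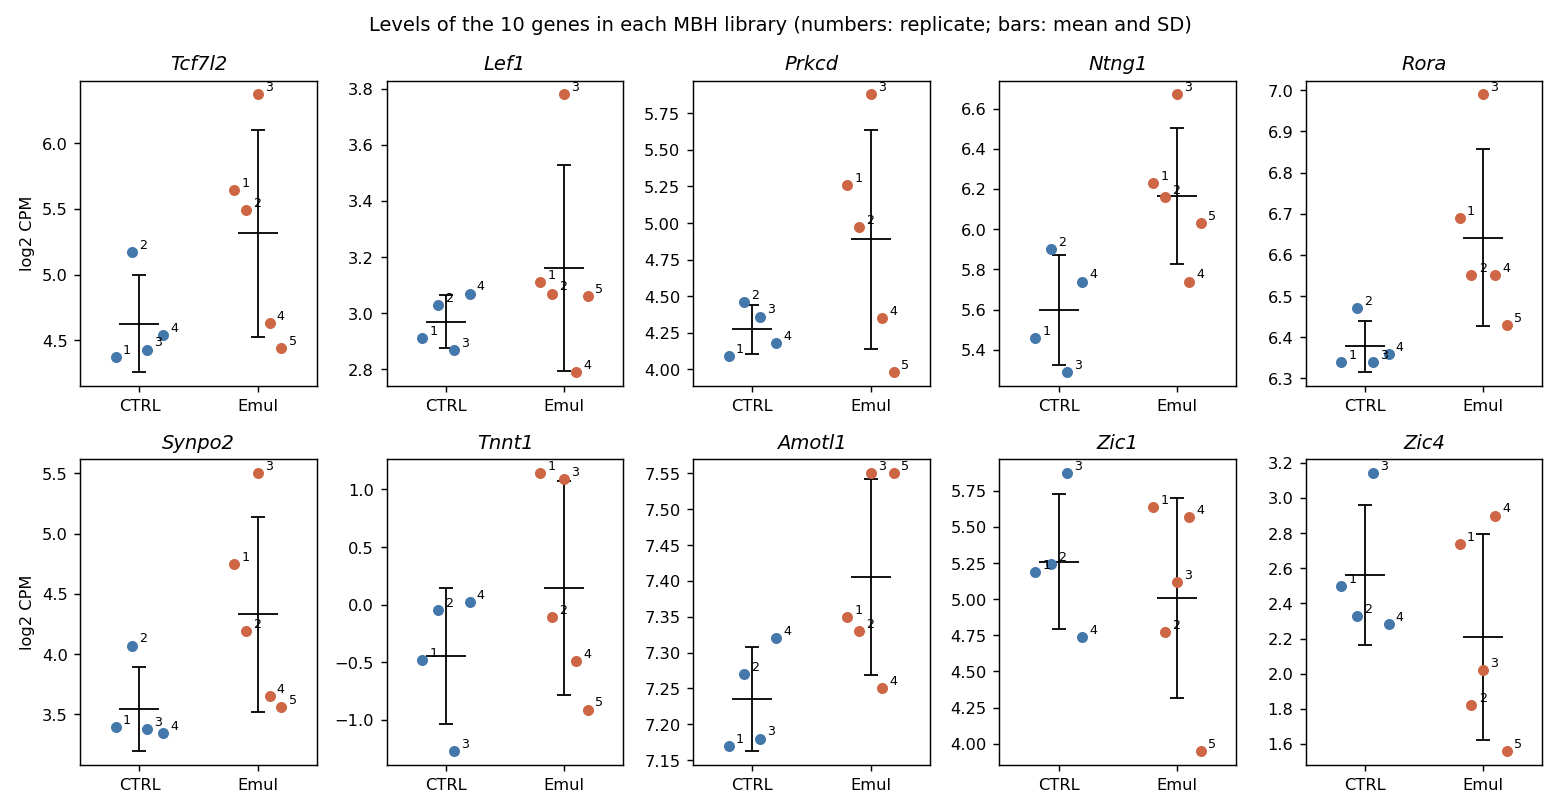
Levels of the 10 genes in log2 CPM (vertical axes, scaled per gene) in 4 CTRL (blue) and 5 Emul (orange) MBH libraries, with the replicate number beside each point and bars for the mean and SD. Emul 3 was the highest library for 7 of the 8 genes outside the Zic family, and Zic1 and Zic4 were highest in CTRL 3.

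Across the 9 genes tested, 7 estimates were above 0 and 2 below, with a median log2 fold change of 0.26 against 0.0015 over all genes. The cutoff, an unadjusted p under 0.05 and a change above 1.5-fold, follows the wording of the study's methods. The legend of its volcano plot names a false discovery rate instead. This cutoff was passed by 0 of the 9 genes in limma-voom and by 0.469% of all genes tested. At an unadjusted p under 0.05 alone, 3 of the 9 were higher (Ntng1, Rora and Amotl1) and 0 lower, and 6.84% of all genes were higher. After adjustment 0 of the 9 passed 0.05, as did 0.117% of all genes. edgeR's quasi-likelihood test gave 6 of 9 at an unadjusted p under 0.05 and DESeq2 gave 5 of 9, again with 0 at an adjusted p under 0.05. The share of all genes at that unadjusted p was not counted for these 2 tests. Over all genes, 32 had an adjusted p under 0.05 with edgeR and 341 with DESeq2, against 18 with limma-voom. The groups overlapped for all 10 genes, whereas they did not overlap for 6.60% of all genes tested. The count past the cutoff depended on which Emul libraries were kept. Without Emul 4 it was 4 of 9 (Tcf7l2, Prkcd, Ntng1 and Synpo2), beside 95 of all 15291 genes tested. Without Emul 5 it was 3 of 9 (Tcf7l2, Prkcd and Synpo2), beside 73 of 15295. Without CTRL 2 it was 1 (Ntng1), beside 75 of 15288, and without CTRL 4 it was again 1 (Ntng1), beside 88 of 15286. Without Emul 3 it was 0 of 9, beside 48 of 15277. In that setting the log2 fold change of Tcf7l2 was 0.41, that of Prkcd 0.38, that of Synpo2 0.48 and that of Lef1 0.02. Zic4 was at -0.14 without CTRL 3 and without Emul 5, at -0.18 without Emul 2 and at -0.48 without Emul 4.

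**Figure D2:**
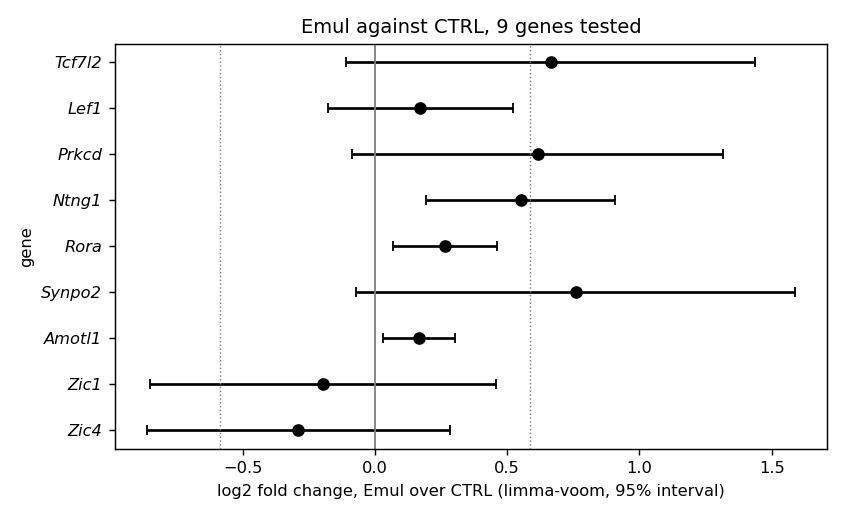
Log2 fold change of Emul over CTRL (horizontal axis) for the 9 genes tested (vertical axis), with 95% intervals from limma-voom before adjustment; dotted lines mark a 1.5-fold change. The intervals of Ntng1, Rora and Amotl1 lay above 0 and those of the other 6 genes spanned it.

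Several of these genes were spread widely within both groups. The SD of Tcf7l2 was 0.37 log2 units in CTRL and 0.79 in Emul, against a median of 0.0741 and 0.0896 over all genes tested. Within Emul, Tcf7l2, Synpo2, Prkcd, Zic1 and Zic4 each had a larger SD than 99.1% to 99.5% of all genes. The corresponding values were 96.8% for Lef1, 95.9% for Ntng1, 87.2% for Rora and 70.5% for Amotl1. Within CTRL, Zic1, Zic4, Tcf7l2 and Synpo2 exceeded 96.2% to 98.1% of genes and Ntng1 92.8%, followed by Prkcd (81.8%) and Lef1 (62.2%), while Rora (42.3%) and Amotl1 (48.1%) were close to the middle. These percentages are descriptions of spread and were given no test.

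Per length, the order of the genes in CTRL ran from Amotl1 at 39.4 ± 1.67 TPM (mean ± SD, n = 4) to Tnnt1 at 2.81 ± 1.13 TPM. Below Amotl1 came Ntng1 (28.0 ± 5.57 TPM), Prkcd (23.4 ± 2.52), Zic1 (20.3 ± 7.17), Rora (18.1 ± 1.37) and Tcf7l2 (17.9 ± 6.11). Neighbours among these 5 overlapped between libraries and were not ordered beyond their spread. Zic4 (6.96 ± 1.69 TPM), Lef1 (5.09 ± 0.416) and Synpo2 (3.28 ± 0.805) followed without overlap between neighbours, and the libraries of Synpo2 and Tnnt1 overlapped. In Emul, Tcf7l2 reached 60.3 TPM in replicate 3 and was at 14.5 TPM in replicate 5.

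The genes outside the Zic family moved together from library to library. Over the 9 libraries, Pearson's r of log2 CPM was 0.98 between Tcf7l2 and Synpo2 and 0.97 between Tcf7l2 and Prkcd (adjusted p = 0.0014 for each, exact permutation over all pairings, Benjamini-Hochberg over 45 pairs). Spearman's rho for these pairs was 0.88 (adjusted p = 0.017) and 0.87 (adjusted p = 0.023), by the same exact test. Among the 8 genes other than Zic1 and Zic4, r was positive in 28 of 28 pairs, with a median of 0.83, and 23 pairs had an adjusted p under 0.05 by Pearson's r and 10 by Spearman's rho. Amotl1 was the loosest of the 8, at 0.52 with Tcf7l2, although its r with Ntng1 was 0.82 (adjusted p = 0.019, exact permutation). In the deposited gene table, r was 0.83 for Tcf7l2 with Synpo2 (adjusted p = 0.025) and 0.92 with Prkcd (adjusted p = 0.0094), by exact permutation. There 18 of the 28 pairs had an adjusted p under 0.05 by Pearson's r.

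These relations were weaker without the high Emul libraries. With the group means subtracted, so that a difference between groups could add nothing, the median r over the 28 pairs was 0.80 and 9 pairs kept an adjusted p under 0.05. Leaving out the 2 libraries farthest from the median of the first gene, which for Tcf7l2 were Emul 1 and Emul 3, left r at 0.96 for Tcf7l2 with Synpo2 and at 0.89 with Prkcd. The same step took Tcf7l2 with Lef1 from 0.82 to 0.42 and with Rora from 0.92 to 0.70. Without Emul 3 alone, 5 of all 45 pairs had an adjusted p under 0.05 instead of 25, and without Emul 1 there were 16.

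Zic1 and Zic4 rose and fell with each other and not with the rest. Their r was 0.92 (adjusted p = 0.0041, exact permutation) and their rho 0.92 (adjusted p = 0.017, exact permutation). The r was 0.92 with group means subtracted and 0.83 without CTRL 3 and Emul 5. In the deposited gene table it was 0.80 (adjusted p = 0.034, exact permutation). Against the 8 other genes, the Zic pair had r between -0.74 and 0.25 with a median of -0.20. Of these 16 pairs, 1 had an adjusted p under 0.05, Amotl1 with Zic4 at -0.74 (adjusted p = 0.040, exact permutation). Zic1 and Tcf7l2 had an r of 0.11 (adjusted p = 0.79, exact permutation).

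**Figure D3:**
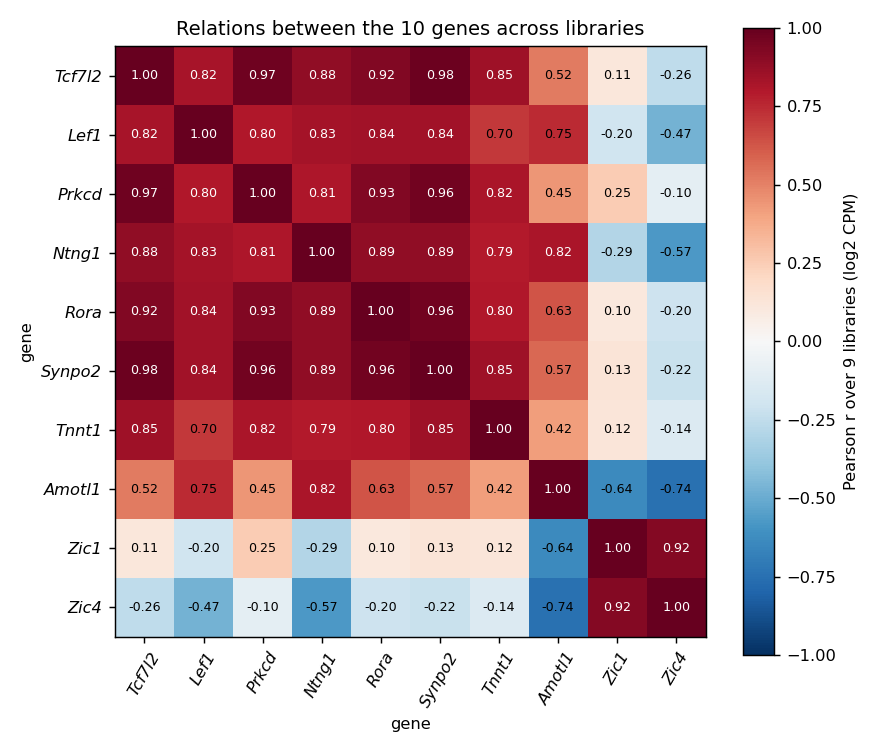
Pearson's r of log2 CPM over the 9 libraries for every pair of the 10 genes (both axes), with red for positive and blue for negative values. The 7 genes from Tcf7l2 to Tnnt1 form a block with r between 0.70 and 0.98, Amotl1 joins it loosely, and Zic1 and Zic4 relate to each other at 0.92.

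Genes outside the list with the most similar pattern were looked for over all 15339 other genes tested, as a description with no test. Those closest to Tcf7l2 were Ptpn3 (r = 0.99), a tyrosine phosphatase, Ramp3 (0.985), a partner of calcitonin-type receptors, Grid2ip (0.984), Slc29a1 (0.983), a nucleoside transporter, and Adcy1 (0.981), an adenylyl cyclase. Ptpn3 was at 3.83, 4.46, 3.88 and 3.93 log2 CPM in CTRL and at 5.10, 4.75, 5.79, 3.88 and 3.63 in Emul. Synpo2 ranked 6 and Prkcd 11 among all genes by r with Tcf7l2, Rora ranked 41, Ntng1 86 and Lef1 186. Prkcd had Ptpn3 (0.982), Ppp1r9b (0.981), which encodes spinophilin, Abhd12b (0.981), Usp17la (0.976) and Nsmf (0.969) nearest to it. Zic1 was followed by Piezo2 (0.958), a mechanically activated channel, Shtn1 (0.956), Zic5 (0.956), Zic2 (0.955) and Smg9 (0.951). None of the genes named in this paragraph other than Ntng1 and Rora had an unadjusted p under 0.05 between the groups (limma-voom).

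The transcripts of Prkcd, Tcf7l2 and Synpo2 did not carry the pattern evenly. kallisto divides reads among transcripts that share exons, so transcript values are estimates. Prkcd-207, the transcript with the largest share, begins at the upstream start of the gene and was at 7.41, 15.0, 12.7 and 9.42 CPM in CTRL and at 25.0, 24.0, 38.7, 11.2 and 8.55 CPM in Emul. All other Prkcd transcripts together were at 9.63, 7.16, 8.16 and 8.80 CPM in CTRL and at 12.9, 6.74, 19.5, 9.01 and 6.94 CPM in Emul. Prkcd-207 therefore varied 5.23-fold over the libraries and the others 2.89-fold. These others begin at several places, some at or near the upstream start (Prkcd-206, Prkcd-208 and Prkcd-209) and the rest downstream of it. Prkcd-201 and Prkcd-205, which begin downstream, had 0 estimated counts after rounding in CTRL 2, CTRL 3 and Emul 2, so the division of reads moved between libraries.

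Tcf7l2-203 begins inside the gene, at chr19:55895510 (mm10), downstream of the starts of Tcf7l2-209 and Tcf7l2-213. Its share of the Tcf7l2 counts was 10.5%, 19.1%, 7.28% and 7.53% in CTRL and 18.3%, 25.3%, 20.2%, 7.15% and 17.7% in Emul. The shares in CTRL 2 and in 4 of 5 Emul libraries were the high ones. Its CPM varied 10.4-fold over the libraries, against 3.73-fold for the other transcripts together. Tcf7l2-209, which carried 52.4% ± 5.22 (SD, n = 4) of the counts in CTRL and 51.5% ± 6.8 (SD, n = 5) in Emul, varied 4.90-fold. Tcf7l2-213 varied most, with 24.0% of the counts in Emul 4 and 0 estimated counts after rounding in Emul 5. The division of reads thus moved between libraries here too.

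Synpo2-207 and Synpo2-202 begin close to each other and end differently. Synpo2-207 was at 5.42, 11.3, 5.67 and 2.47 CPM in CTRL and at 21, 12, 34.5, 6.69 and 5.62 CPM in Emul. Synpo2-202 stayed between 4.42 and 5.93 CPM in 8 libraries and was at 10.2 CPM in Emul 3. Emul 1 and Emul 2 were thus high for Synpo2-207 and not for Synpo2-202. In the authors' gene table Synpo2 had lower levels, from 2.14 to 3.49 log2 CPM, and a log2 fold change of 0.39 (unadjusted p = 0.12, limma-trend). When Synpo2-207 and the other 4 higher-numbered of the 103 transcripts were left out and counts were also rescaled for transcript length (lengthScaledTPM), the log2 fold change was 0.37 (unadjusted p = 0.16, limma-voom). The length rescaling alone gave 0.72.

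Between the groups, the share of no transcript differed after adjustment. Of 23 transcripts with at least 10% of their gene's counts, 0 had an adjusted p under 0.05 (exact permutation test, smallest adjusted p 0.46), and 1 had an unadjusted p under 0.05. This was Zic4-211, a transcript with a retained intron, at 14.3% ± 3.43 of the Zic4 counts in CTRL and 20.5% ± 2.24 in Emul (SD, n = 4 and 5, exact permutation p = 0.024). It rested on 24 to 58 estimated counts per library. Rora-201 (95.7% in CTRL and 96.5% in Emul) and Amotl1-201 (93.7% and 93.1%) made up nearly all counts of their genes.

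**Figure D4:**
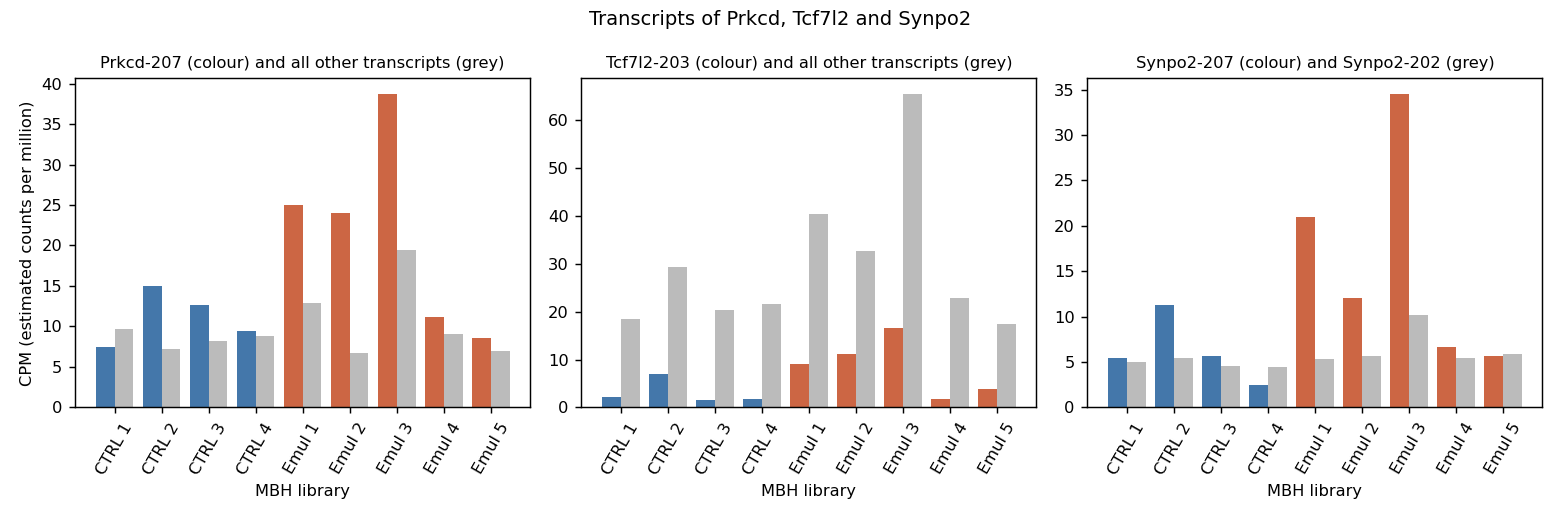
Estimated counts in CPM (vertical axes, from 0) in the 9 libraries for Prkcd-207, Tcf7l2-203 and Synpo2-207 (blue in CTRL, orange in Emul), beside all other transcripts of Prkcd and of Tcf7l2 and beside Synpo2-202 (grey). Emul 3 was highest in each panel, at 38.7, 16.6 and 34.5 CPM.

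Promoters are shown for Prkcd and Tcf7l2, whose transcripts are described above and for which RefSeq gives an internal start beside the upstream one. The transcripts were not grouped by start, so the values above do not measure either promoter. Prkcd-207 begins at the upstream start, and Tcf7l2-203 begins shortly after the internal start of RefSeq. Each window holds 300 bases, from 250 before to 50 after a RefSeq start site (GRCm38.p6, the assembly of mm10), read 5′ to 3′ on the strand of the gene. RefSeq gave 15 windows for the 10 genes. Capitals mark TCAAAG, the core bound by TCF and LEF factors, AGGTCA, the half-site of ROR receptors, CCTGCTG, a core bound by ZIC proteins, and TATAAA, on either strand. These letters occur in 16.0%, 16.3%, 10.5% and 13.6% of all 32851 windows of the same length. The upstream start of Prkcd (chr14:30626159-30626458, minus strand) and the internal one (chr14:30610261-30610560, minus strand) lie 15898 bases apart, and those of Tcf7l2 (chr19:55741560-55741859 and chr19:55895071-55895370, plus strand) 153511 bases apart.
Prkcd upstream: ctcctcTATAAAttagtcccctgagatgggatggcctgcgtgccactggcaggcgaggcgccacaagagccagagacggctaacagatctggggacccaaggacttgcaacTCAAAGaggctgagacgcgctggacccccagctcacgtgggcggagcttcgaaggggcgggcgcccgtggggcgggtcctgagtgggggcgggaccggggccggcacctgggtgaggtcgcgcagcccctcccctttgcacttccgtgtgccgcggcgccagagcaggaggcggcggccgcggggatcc
Prkcd internal: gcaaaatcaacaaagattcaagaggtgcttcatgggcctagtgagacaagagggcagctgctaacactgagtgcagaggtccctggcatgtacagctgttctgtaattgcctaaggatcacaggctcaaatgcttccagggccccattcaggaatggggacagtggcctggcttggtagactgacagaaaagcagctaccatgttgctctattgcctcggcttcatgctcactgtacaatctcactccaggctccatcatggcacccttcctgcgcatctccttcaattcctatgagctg
Tcf7l2 upstream: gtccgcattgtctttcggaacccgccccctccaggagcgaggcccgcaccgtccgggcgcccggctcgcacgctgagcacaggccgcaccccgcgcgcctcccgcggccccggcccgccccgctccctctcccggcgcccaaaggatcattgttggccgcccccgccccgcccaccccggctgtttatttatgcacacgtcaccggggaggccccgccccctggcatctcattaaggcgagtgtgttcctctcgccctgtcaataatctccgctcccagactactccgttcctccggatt
Tcf7l2 internal: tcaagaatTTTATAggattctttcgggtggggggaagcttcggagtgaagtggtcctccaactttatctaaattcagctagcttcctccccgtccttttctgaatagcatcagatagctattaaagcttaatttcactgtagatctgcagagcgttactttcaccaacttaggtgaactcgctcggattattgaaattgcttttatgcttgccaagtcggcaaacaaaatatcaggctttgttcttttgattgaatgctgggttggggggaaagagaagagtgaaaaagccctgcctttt

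In these windows the upstream start of Prkcd held TATAAA at position 7 and TCAAAG at position 112, counted from the first base shown, and the internal start held none of the 4 motifs. The internal start of Tcf7l2 held TTTATA, the reverse complement of TATAAA, at position 9, and its upstream start held none. By base composition the upstream windows were rich in G and C, at 69.3% for Prkcd and 70.0% for Tcf7l2, against 51.3% and 42.0% for the internal ones and 53.8% in the mean of all windows. Of the 15 windows of the 10 genes, 7 held no motif. Lef1 also has internal starts in RefSeq, and its windows, some with motifs, are not shown. A match describes the letters only.

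Zic1 and Zic4 are neighbours on chromosome 9 and are read in opposite directions. Their windows are shown because these genes moved together. In mm10 Zic1 lies at chr9:91358058-91365810 on the minus strand and Zic4 at chr9:91362413-91389348 on the plus strand, so that 3398 bases of the gene spans overlap. The libraries were strand-specific, but the strand setting of kallisto is not given in the sources used here, and counts in the overlap are uncertain for both genes. The RefSeq start sites lie 3204 bases apart, with windows at chr9:91365719-91366018 (Zic1, minus strand) and chr9:91368722-91369021 (Zic4, plus strand).
Zic1: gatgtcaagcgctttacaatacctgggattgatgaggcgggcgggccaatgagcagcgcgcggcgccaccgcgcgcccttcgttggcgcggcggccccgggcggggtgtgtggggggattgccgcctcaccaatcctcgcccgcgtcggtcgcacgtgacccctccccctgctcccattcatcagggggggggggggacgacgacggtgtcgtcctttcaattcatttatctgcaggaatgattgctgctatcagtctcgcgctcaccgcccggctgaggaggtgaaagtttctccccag
Zic4: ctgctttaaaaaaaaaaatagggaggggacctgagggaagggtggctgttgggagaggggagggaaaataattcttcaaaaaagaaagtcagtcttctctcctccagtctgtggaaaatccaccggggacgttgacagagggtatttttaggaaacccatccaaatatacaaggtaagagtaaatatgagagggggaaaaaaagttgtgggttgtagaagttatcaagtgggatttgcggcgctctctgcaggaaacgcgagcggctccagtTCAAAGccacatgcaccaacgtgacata

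Zic1 held none of the 4 motifs here, and Zic4 held TCAAAG at position 273. G and C made up 65.3% of the Zic1 window and 46.0% of the Zic4 window. Zic2 and Zic5, which lie elsewhere in the genome, went with this pair. Their r with Zic1 was 0.95 and 0.96 over the 9 libraries, while 0.867% of all genes had an r of at least 0.8. Zic2, for example, was highest in CTRL 3 at 4.22 log2 CPM and lowest in Emul 5 at 2.41. Neither had an unadjusted p under 0.05 between the groups (limma-voom).

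Other genes known from the thalamus mostly had estimates above 0, and several varied like Tcf7l2. Their list was chosen with earlier results of these data known, so its counts are a description and no independent support. Of 15 such genes, all were tested, 14 had an estimate above 0 and 6 were higher at an unadjusted p under 0.05, while 0 were lower. Over all genes these shares were 6.84% and 8.99%. Of the 15, 0 passed the cutoff, and the median log2 fold change was 0.20. The 3 with the smallest p were Nell1, with a log2 fold change of 0.18, Calb2, which encodes calretinin, with 0.20, and Slc17a6, a vesicular glutamate transporter that the hypothalamus also uses widely, with 0.29. Their limma-voom adjusted p was 0.16, 0.17 and 0.19. Of the 15 genes, 9 had an r with Tcf7l2 of at least 0.8 over the 9 libraries, and 1.51% of all genes tested did. The largest ranges were in low genes. Shox2, a transcription factor gene, was at -1.09, 1.99, 0.39 and 0.22 log2 CPM in CTRL and at 2.99, 2.85, 4.12, 0.67 and -0.18 in Emul. Emul 1, Emul 2 and Emul 3 were its 3 highest libraries and CTRL 2 came next, as for Tcf7l2. Shox2 was named after its values were seen, and its unadjusted p was 0.12 by limma-voom. The other 6 had lower r, of 0.28 for Lhx2, 0.35 for Rgs16, 0.43 for Slc17a6, 0.55 for Patj, 0.56 for Plcb4 and 0.62 for Slitrk6. The genes higher at an unadjusted p under 0.05 were thus only in part those that followed Tcf7l2. Slc17a6, Patj and Plcb4 were among them, beside Nell1 (r = 0.83), Calb2 (0.82) and Adarb1 (0.94). Ramp3 and Gbx2, with r of 0.98 and 0.89, had an unadjusted p of 0.12 and 0.2 by limma-voom.

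**Figure D5:**
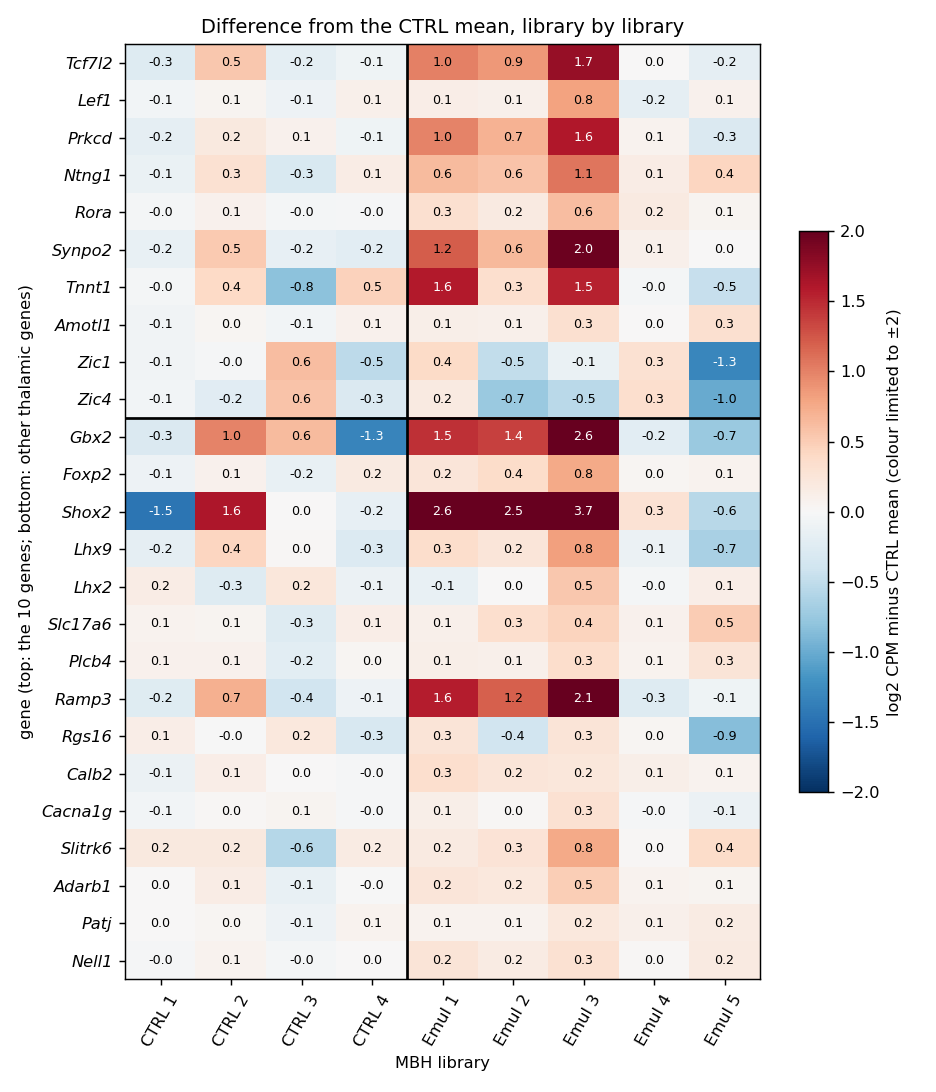
Log2 CPM minus the CTRL mean (colour and printed number) for the 10 genes (top) and 15 other thalamic genes (bottom) in each of the 9 MBH libraries. Shox2, Ramp3, Gbx2, Synpo2, Tcf7l2 and Prkcd stand out in Emul 1, Emul 2 and Emul 3, and CTRL 2 lies above the other CTRL libraries for most of them.

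Markers of neighbouring regions were read beside these genes, as TPM summed over each list. These sums were not scaled by TMM, and lists of no region could also be lower in Emul. The netrin-G family and its ligands summed to 240.9 to 253.7 TPM in CTRL and 216.0 to 231.8 in Emul, at a median log2 fold change of -0.07. The protein kinase C family overlapped, at 405.6 to 436.8 TPM in CTRL and 393.1 to 431.3 in Emul. A lower sum is therefore a description and was given no test. The 15 other thalamic genes summed to between 796 and 889.8 TPM in CTRL and between 836 and 1002 in Emul. Calb2 (296 TPM in the mean of all libraries) and Slc17a6 (165 TPM) had the largest parts in it. The 15 genes of the basal and neighbouring hypothalamus summed to between 1996 and 2217 TPM in CTRL and between 1389 and 1994 in Emul. That sum was lower in every Emul library than in any CTRL library, but it was carried by Pmch (994 TPM in the mean of all libraries) and Hcrt (353 TPM). Over the 14 genes tested the median log2 fold change was -0.05, with Npy at 0.28 (unadjusted p = 0.069), Agrp at 0.11 (unadjusted p = 0.41) and Pomc at -0.23 (unadjusted p = 0.17) by limma-voom. Hcrt, which encodes orexin, had a log2 fold change of -0.70 (unadjusted p = 0.010, adjusted p = 0.19 by limma-voom) and was the 1 gene of these lists past the cutoff. Fezf1 (-0.32, unadjusted p = 0.0089) and Pmch (-0.32, unadjusted p = 0.0096) were also lower, each with an adjusted p of 0.18 to 0.19. Genes marking the thalamic reticular nucleus and zona incerta summed to 159.8 to 196 TPM in CTRL and to 125 to 158 in Emul. At an unadjusted p under 0.05, where 8.99% of all genes were lower, 1 of the 5 genes was lower. This was Six3, with a log2 fold change of -0.36 and an adjusted p of 0.26 by limma-voom.

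Markers of the habenula, which also uses Tcf7l2, were low. The 6 genes summed to 8.43 to 9.89 TPM in CTRL and 8.56 to 10.6 in Emul, and Pou4f1, Gpr151 and Chrna3 were under the filter. Of 5 cortex and hippocampus genes, 7.17 to 9.56 TPM in CTRL and 7.97 to 17.5 in Emul, Slc17a7, a vesicular glutamate transporter, followed Tcf7l2 with an r of 0.97, and Neurod6 and Tbr1 did not, with r of 0.35 and -0.13. Lists for striatum and amygdala (6 genes), septum and preoptic area (5 of 6 tested), mammillary and subthalamic regions (5), pituitary (2 of 5), choroid plexus (2 of 5) and meninges (5) had 0 genes with an unadjusted p under 0.05. None of the regional markers was at 0 in every library. The part of dissection in the levels of Tcf7l2 and the other genes was not tested.

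Of the glial and neuronal markers, 0 had an adjusted p under 0.10 by limma-voom, and the counts that follow are at an unadjusted p under 0.05. Over all genes tested, 6.84% were higher and 8.99% lower at that p. All 6 markers of mature oligodendrocytes had estimates below 0, 5 of them at an unadjusted p under 0.05 (Mbp -0.29, Mag -0.31 and Cnp -0.27 on the log2 scale with the smallest p), and their sum was 12282 to 15478 TPM in CTRL and 9200.1 to 12860 in Emul. Of 5 markers of newly formed oligodendrocytes, 3 were lower at an unadjusted p under 0.05 (Enpp6 -0.31, Bmp4 -0.30 and Bcas1 -0.18). The r of single genes with Tcf7l2 was -0.60 to -0.52 for the newly formed stage and -0.51 to -0.20 for the mature one. Of 7 astrocyte genes, 1 was lower (Gfap, -0.40, unadjusted p = 0.00061, adjusted p = 0.10), and of 7 neuronal genes 3 were higher, with Rbfox3 (0.12) and Tubb3 (0.12) ahead. Gad1 (-0.24, unadjusted p = 0.065) and Gad2 (-0.23, unadjusted p = 0.10 by limma-voom), which make GABA, had estimates below 0. The 7 genes summed to 2901 to 3074 TPM in CTRL and 2794 to 2917 in Emul, although 5 of their estimates were above 0. Endothelial genes had 1 higher (Slc2a1, 0.16) and 1 lower (Slco1a4, -0.25) of 7, and smooth muscle and pericyte genes 0 of 6. Mitochondrially encoded genes took 4.51% to 5.52% of counts in CTRL and 5.71% to 6.75% in Emul. The part of these shifts in the thalamic genes was not tested.

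Among relatives and partners of the 10 genes, 0 had an adjusted p under 0.10 by limma-voom. Over all genes tested, 6.84% were higher and 8.99% lower at an unadjusted p under 0.05. Of 11 genes of the TCF and LEF family and their cofactors, 0 were higher and 3 lower at that p. They were Pygo2 (log2 fold change -0.20, adjusted p = 0.10), Bcl9l (-0.18, adjusted p = 0.13) and Tle2 (-0.14, adjusted p = 0.24), of which Pygo2 and Bcl9l act with β-catenin and Tle2 is a corepressor of TCF and LEF factors. Of 9 Wnt target genes tested of 12, Znrf3 (0.19) and Lgr5 (0.21) were higher and Ccnd1 (-0.15) lower, with adjusted p of 0.15, 0.18 and 0.23 by limma-voom. Axin2, a general target of the pathway, had an estimate of -0.11 with an unadjusted p of 0.092.

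The same shares over all genes, 6.84% higher and 8.99% lower at an unadjusted p under 0.05, apply to the next families. In the protein kinase C family, 2 of 8 genes were higher, Prkcb (0.14, adjusted p = 0.14) and Prkce (0.08, adjusted p = 0.20). Prkch, which was not among them (0.38, unadjusted p = 0.24), was the only one of the 8 with an r of at least 0.8 with Tcf7l2, at 0.98, and Prkca had an r of -0.96. Among the ligands and the relative of netrin-G1, Lrrc4 was lower (-0.08, adjusted p = 0.28) and Lrrc4c, the ligand of netrin-G1, had an estimate of 0.08 with an unadjusted p of 0.079 (limma-voom). Of 7 angiomotin relatives and YAP partners, Amotl2 (-0.26, adjusted p = 0.11) and Lats2 (-0.12, adjusted p = 0.26) were lower, opposite in sign to the estimate of Amotl1. In the synaptopodin family 1 of 4 genes tested was higher (Actn2, 0.13, adjusted p = 0.28). The ROR family (5 genes), the troponin family (4 tested of 7) and T-type calcium and HCN channels (5) had 0 genes at an unadjusted p under 0.05 in limma-voom.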

How the data were processed

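RNA of the MBH was measured in 9 libraries. The authors ran kallisto on mm10 and deposited, for each of 119414 transcripts, an estimated count and a TPM value. Their gene-level file, also deposited, holds log2 CPM for 14593 entries, 1 of them unnamed. Per the submitters' processing notes the tools were FastQC 0.11.9, kallisto 0.46.1 and edgeR 3.40.1. How transcripts were summarised for that table, and the strand setting, are not given in the sources used here.

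Transcripts were matched to GENCODE M21 genes (97.8% matched) and estimated counts summed per gene, without rounding for limma-voom and rounded for edgeR and DESeq2. Unmatched transcripts (1.20% to 1.27% of counts) were left out. Groups came from the sample labels. Genes with CPM above 1 in at least 4 libraries were scaled by TMM and fitted with limma-voom without covariates (limma 3.58.1, edgeR 4.0.16, DESeq2 1.42.0, R 4.3.3). Log2 CPM values were computed with a prior count of 2. p-values were adjusted by Benjamini-Hochberg over all genes tested. The fit was tested on simulated counts. Single values were compared by exact permutation over all splits of 9 libraries into 4 and 5, for which the smallest p is 0.0079. Alternatives were other tests, scalings, filters, transcript summaries, the deposited table, a replicate block and leaving out each library.

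No 2 libraries agreed within sampling noise. Counting error was largest for Tnnt1 and is not negligible for Lef1 (207 to 515 estimated counts) or Zic4 (105 to 336). The p-values measure the spread between libraries, in which litter, dissection and library preparation cannot be told apart. The members and gene lists were chosen with earlier results of these data known. Genes named outside the 10 were those past the cutoff or at an adjusted p under 0.10, up to 3 per list with the smallest p, and the 5 most correlated with Tcf7l2, Prkcd or Zic1. Others, such as Shox2, Ramp3, Slc17a7, Prkch, Axin2 and genes given for contrast, were named after their values were seen. Some genes of the lists are not reported here.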

Additional observations from a re-analysis of the deposited data

Results flagged for a closer look

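A library stood far from the others of its group in 5 of 66 sets of values examined (each gene's level and each transcript's share, in CTRL and in Emul), where chance would give about 3.3. Each ratio is the gap to the nearest library over the whole range of the group. Synpo2 in CTRL 2, at 4.07 log2 CPM, stood above the other CTRL libraries at 3.34 to 3.39, with a ratio of 0.924. The share of Tnnt1-201 was 57.4% in CTRL 3 and 0% in the other CTRL libraries, with a ratio of 1.0, and in Emul 3 it was 40.1% with at most 10.2% in the others, with a ratio of 0.746. Both rest on few counts, since Tnnt1 had 10 and 78 estimated counts in these libraries. The share of Zic1-202 in CTRL 1 was 27.3%, beside 25.6% to 25.7% in the others, with a ratio of 0.941. The share of Zic4-202 in CTRL 2 was 12.6%, beside 21.8% to 22.8%, with a ratio of 0.902.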

How the results depend on the processing

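Of 189 recalculated log2 fold changes of the 9 genes, 166 kept both their direction and their side of an unadjusted p of 0.05. Ntng1 and Lef1 kept both in all of theirs, although Lef1 was at 0.02 without Emul 3. Zic1, at -0.20 in the reported fit, turned to 0.04 with the replicate block and ranged from -0.38 to 0.05 with 1 library left out, above 0 only without Emul 5. The number of these genes past the cutoff was 3 with edgeR (Tcf7l2, Prkcd and Synpo2), 3 with DESeq2 (Prkcd, Ntng1 and Synpo2), 1 with limma-trend (Synpo2), 4 with the replicate block and 2 in the authors' table (Ntng1 and Zic4), and between 0 and 4 with 1 library left out. The other settings gave 0, as the reported fit did. At an unadjusted p under 0.05 there were 6 with edgeR, 5 with DESeq2 and 5 with the replicate block, and between 2 and 6 with 1 library left out. The shares over all genes at that p were not counted for these settings. The block is no paired test here, since same-numbered libraries had correlations of -0.163, -0.015, 0.021 and -0.055 and Emul 5 has no partner. With it, Tcf7l2 was at 0.91, Prkcd at 0.87 and Synpo2 at 1.00, and the smallest adjusted p of the 9 genes was 0.31. Over all genes, those past the cutoff numbered 72 in the reported fit and 48 to 95 with 1 library left out. They numbered 69 with edgeR, 57 with DESeq2, 72 with limma-trend, 73 with the replicate block and 100 in the authors' table. Without a filter on low counts there were 684 (more genes tested), and 37 with CPM above 1 in all libraries (fewer genes tested). Related pairs numbered 25, 10 with group means subtracted, 20 in the authors' table and 5 to 29 with 1 library left out. The cause of these shifts was not tested where no reason is given. Zic4 passed an unadjusted p of 0.05 with lengthScaledTPM (-0.55) and in the authors' table (-0.59), and Prkcd fell to 0.39 in both. Tnnt1 entered the test without a filter, at 0.54 (unadjusted p = 0.28, limma-voom). With 4 and 5 libraries, the spread of these genes within Emul limits what a comparison of means can show.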
